A study of Mus musculus with 4 samples.

Results

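The genes described here were 10 genes of the intercalated disc, the junction that joins cardiac muscle cells end to end. They were chosen by symbol for their known place in this structure and not by their values, but with earlier results of these data known. All 10 were found among the 23337 genes listed for each library. Of these genes, Gja1, Gja5 and Gjc1 encode connexins, Dsp, Pkp2, Dsg2, Dsc2 and Jup encode parts of the desmosome, Cdh2 encodes the cadherin of the adherens junction, and Tjp1 encodes the scaffold protein ZO-1. The data were 4 RNA-seq libraries of mouse heart, 1 for each combination of genotype and age.

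At the intercalated disc, gap junctions made of connexin channels carry the electrical impulse from cell to cell, while desmosomes and adherens junctions transmit force and anchor intermediate filaments and actin. In the working heart muscle these components are intermixed along the disc, a zone called the area composita. Inherited defects in desmosomal genes are a known cause of arrhythmogenic cardiomyopathy, and loss of connexin channels is known to slow conduction.

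All mice were of the strain C57BL6/J. Control hearts came from PIMT fl/fl mice, whose PIMT gene (symbol Tgs1) has loxP sites around part of it, aged 2 and 6 months. Age-matched csPIMT-/- mice also carried Cre recombinase under the α-MyHC promoter, which is active in cardiomyocytes from around birth. Deletion was therefore directed at cardiomyocytes, and the other cells of the heart kept the gene. No group carried Cre without the floxed alleles. Each library was made from the RNA of 5 mice of 1 group, males and females together. With 1 pooled library a group, no difference at a single age has a replicate check, and genotype cannot be told apart from the make-up of a pool. In whole tissue, fewer cells of a type and less RNA per cell cannot be told apart.

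The deposited values were normalized counts, that is, reads on a gene divided by the size factor of the library. The libraries held between 29823073 and 40705783 reads on genes, and 17169 to 17349 genes had at least 1 read. Ratios below are csPIMT-/- over the age-matched control, with a 95% Clopper-Pearson interval, which covers counting error only and not the spread between hearts. Tgs1 had normalized counts of 579.75 and 816 in the controls of 2 and 6 months, against 160.3 and 162 in the csPIMT-/- libraries. Its ratio was 0.276 (0.227 to 0.334) at 2 months and 0.199 (0.167 to 0.236) at 6 months, so the target was low in both libraries labelled csPIMT-/-. The GC content of Tgs1 was 41.9%, and genes under 45% had median ratios of 0.459 and 0.404 at the 2 ages. In the fit over both ages given below, its log2 difference ranged from -2.09 to -0.858 over 10 settings. Among cardiomyocyte markers all 8 were detected in all 4 libraries. The libraries stood apart in markers of the atrium. The 6 atrial markers summed to 41731 in the control of 2 months against 126707 to 352147 in the other libraries. Nppa, which the paper uses as an indicator of heart failure, made up much of each sum. It stood at 38182 and 70659 in the controls of 2 and 6 months, and at 201180 and 320296 in csPIMT-/- hearts. These sums therefore do not measure the share of atrial tissue. Markers of lung and airway epithelium summed to 1618 in csPIMT-/- hearts of 2 months and to 350 in those of 6 months, against 44.1 and 39.6 in the controls. Krt8, a keratin not limited to these tissues, made up 312 of the 350 at 6 months, and 37.2 and 29.0 in the controls, but 434 of the 1618 at 2 months. Of the others, Sftpc, Sftpa1, Scgb1a1 and Bpifa1 had 0 reads in the control of 2 months, and Sftpa1 and Sftpb had 0 in that of 6 months.

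The genes lie on several chromosomes (GRCm38, GENCODE M21 annotation). Gja1 spans chr10:56377330-56402513 on the plus strand, Gja5 chr3:96904693-97077416 on the plus strand, Gjc1 chr11:102799579-102819700 on the minus strand, Dsp chr13:38151294-38198577 on the plus strand, Pkp2 chr16:16213318-16272712 on the plus strand, Jup chr11:100368958-100397763 on the minus strand and Tjp1 chr7:65296165-65527781 on the minus strand. A RefSeq table (GRCm38.p6) held a promoter window for 5 of the 10 genes. The 250 bases before the start site are shown for Gja1 and Tjp1, which were lower in csPIMT-/- hearts at both ages, and for Gja5 and Jup, which were higher at 2 months. The Gja1 and Jup windows lie next to the gene ends given above, while those of Gja5 and Tjp1 lie well inside the annotated spans, at internal start sites. Capitals mark matches, on either strand, to AP-1 (TGANTCA), the GC box (GGGCGG), the CCAAT box, the TATA box (TATAAA) and the T-box core (AGGTGT).
Gja1: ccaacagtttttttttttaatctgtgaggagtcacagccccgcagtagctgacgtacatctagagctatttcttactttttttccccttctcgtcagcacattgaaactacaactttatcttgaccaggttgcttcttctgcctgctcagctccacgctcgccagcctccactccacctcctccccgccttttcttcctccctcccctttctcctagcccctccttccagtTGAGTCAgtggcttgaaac
Tjp1: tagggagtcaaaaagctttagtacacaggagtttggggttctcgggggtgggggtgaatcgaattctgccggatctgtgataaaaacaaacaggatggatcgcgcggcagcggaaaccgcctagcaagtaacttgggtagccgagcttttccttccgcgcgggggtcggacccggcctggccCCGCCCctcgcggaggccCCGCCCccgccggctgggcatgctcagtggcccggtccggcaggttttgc
Gja5: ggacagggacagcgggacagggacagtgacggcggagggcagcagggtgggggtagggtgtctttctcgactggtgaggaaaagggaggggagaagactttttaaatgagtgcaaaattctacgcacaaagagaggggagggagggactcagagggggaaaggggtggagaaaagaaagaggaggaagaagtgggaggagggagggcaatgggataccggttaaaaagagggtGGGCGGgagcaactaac
Jup: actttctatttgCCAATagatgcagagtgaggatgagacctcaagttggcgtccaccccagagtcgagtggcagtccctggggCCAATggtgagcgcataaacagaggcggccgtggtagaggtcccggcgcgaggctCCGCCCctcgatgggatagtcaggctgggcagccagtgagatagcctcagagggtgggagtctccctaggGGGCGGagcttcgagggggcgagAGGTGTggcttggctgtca
The windows were chr10:56377050-56377299 on the plus strand for Gja1, chr7:65371245-65371494 on the minus strand for Tjp1, chr3:97032152-97032401 on the plus strand for Gja5 and chr11:100397791-100398040 on the minus strand for Jup. Their GC content was 50%, 63.2%, 56.4% and 62%, against a median of 52.4% over all windows of the table. The Gja1 window held 1 AP-1 match, the Tjp1 window 2 GC boxes, the Gja5 window 1 GC box, and the Jup window 2 GC boxes, 2 CCAAT boxes and 1 T-box core. Dsp, whose window is not shown, had 4 GC boxes and 1 T-box core at a GC content of 72.4%. None of the 5 windows held TATAAA. Among 32817 windows of the same length, 6.75% held AP-1, 32.7% a GC box, 33.8% a CCAAT box, 12.4% TATAAA and 11.8% AGGTGT. No match overlapped another. These matches are descriptions of sequence, and nothing measured here bears on binding.

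Taken per kilobase of the longest coding transcript, the genes fell into a high and a low tier in every library. In the control of 2 months Gja1 led with a normalized count of 6002 per kb, followed by Dsp at 5124, Jup at 3755, Cdh2 at 3036 and Pkp2 at 2927. Tjp1 at 963, Gjc1 at 862, Dsc2 at 849.6, Dsg2 at 497 and Gja5 at 151 per kb made up the low tier. In csPIMT-/- hearts of 2 months Jup came first at 5779.9 per kb and Gja1 the third at 3438. In those of 6 months Pkp2 at 4591 and Jup at 4529 per kb led, and Gja1 stood at 3143, the fifth, close to Cdh2 at 3186. In the control of 6 months the order was again led by Gja1 at 7042 and Dsp at 5890 per kb. Neighbours in the low tier often lay within a few percent of each other, such as Gja5 at 462.8 and Dsg2 at 462.5 per kb in csPIMT-/- hearts of 2 months. The scale assumes that the longest coding transcript is the one made.

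**Figure D1:**
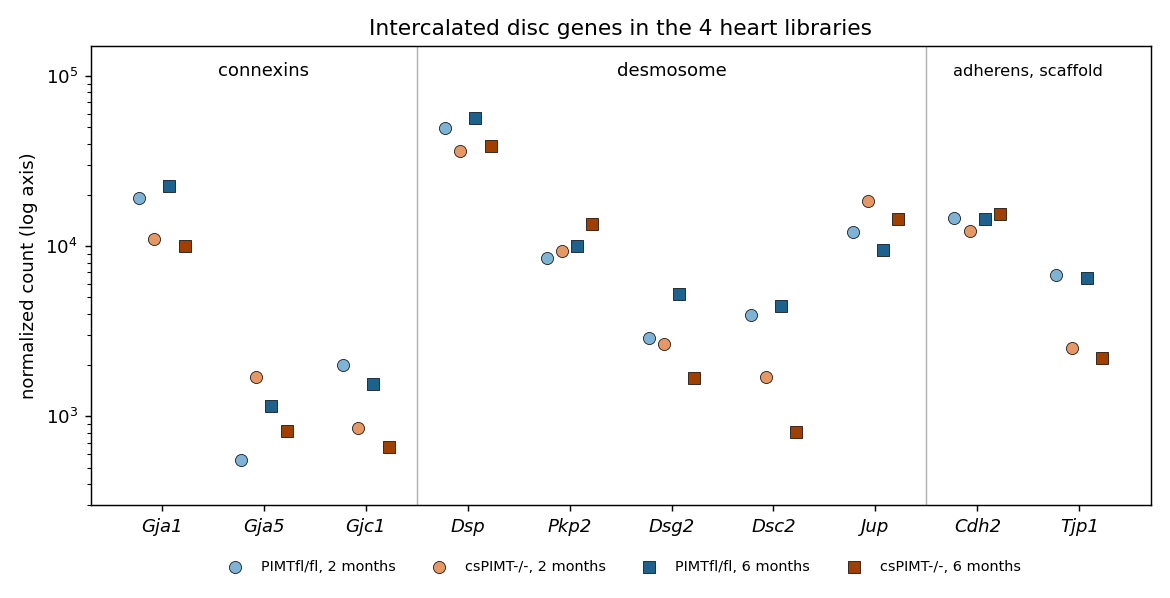
Normalized counts (log axis) of the 10 genes, in order of their junction, with 1 point for each of the 4 libraries and no error bar because there were no replicates. Gja1, Gjc1, Dsp, Dsg2, Dsc2 and Tjp1 have both csPIMT-/- points below both control points, Jup has both above, and Gja5 is highest in the csPIMT-/- library of 2 months.

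At 2 months, 3 of the 10 genes (Gjc1, Dsc2 and Tjp1) were more than 2-fold lower in csPIMT-/- hearts and 1 (Gja5) was more than 2-fold higher. Among the 15152 genes that reached 10 reads in either library, 22.5% were lower and 17.3% higher by this measure. At 6 months 5 genes (Gja1, Gjc1, Dsg2, Dsc2 and Tjp1) were more than 2-fold lower and 0 higher, where 24.9% of 15218 genes were lower and 16.9% higher. Gjc1, Dsc2 and Tjp1 were lower at both ages, as were 16.0% of the 14781 genes compared at both. The median log2 ratio of the 10 genes was -0.36 at 2 months and -0.86 at 6 months, against medians close to 0 over all genes. Ratios below 1 were found for 7 of the 10 genes at each age, and for 50.1% of all genes at 2 months and 49.9% at 6 months. Both csPIMT-/- libraries lay below both controls for 6 of the 10 genes (Gja1, Gjc1, Dsp, Dsg2, Dsc2 and Tjp1) and above both for 1 (Jup), where 35.9% and 35.2% of the 14847 genes with enough reads did so. Gja5 and Cdh2 lay on opposite sides of 1 at the 2 ages, as did 20.8% of genes.

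Over both ages together, limma called 4 of the 10 genes lower (Gja1, Gjc1, Dsc2 and Tjp1) and 0 higher at an adjusted p under 0.05. Of all 14847 genes tested, 17.5% were called lower and 11.0% higher. At an unadjusted p under 0.05 there were 5 of the 10 genes, the fifth being Jup, which was higher, and 45.3% of all genes. The fit had 4 libraries, genotype and age as terms and 1 residual degree of freedom, so it rested on variance borrowed across genes. With age as a term, the residual of a gene was how far its genotype difference departed between the ages. The p-values of the fit therefore do not measure the spread between hearts or between pools of the same group. On the recovered reads edgeR and DESeq2 each also called 4 lower and 0 higher. Without the mean trend of the variance, and again with the GC trend subtracted, limma called 0 of the 10 genes and 0 of all genes, with 4 and 2 of the 10 at an unadjusted p under 0.05.

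The ratios across the whole transcriptome moved with base composition. Genes whose longest transcript had a GC content under 45% had a median ratio of 0.459 at 2 months and 0.404 at 6 months, while genes of 55% or more had a median ratio of 1.66 at both ages. The 10 genes ranged from 42.2% (Gja1) and 42.5% (Dsc2) to 58.8% (Jup). For the 10 genes, ratios with this trend subtracted are therefore given where they move the gene across 1 or 2-fold. For other disc genes only counts under this setting are given. The part of base composition in the genotype differences was not tested.

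**Figure D2:**
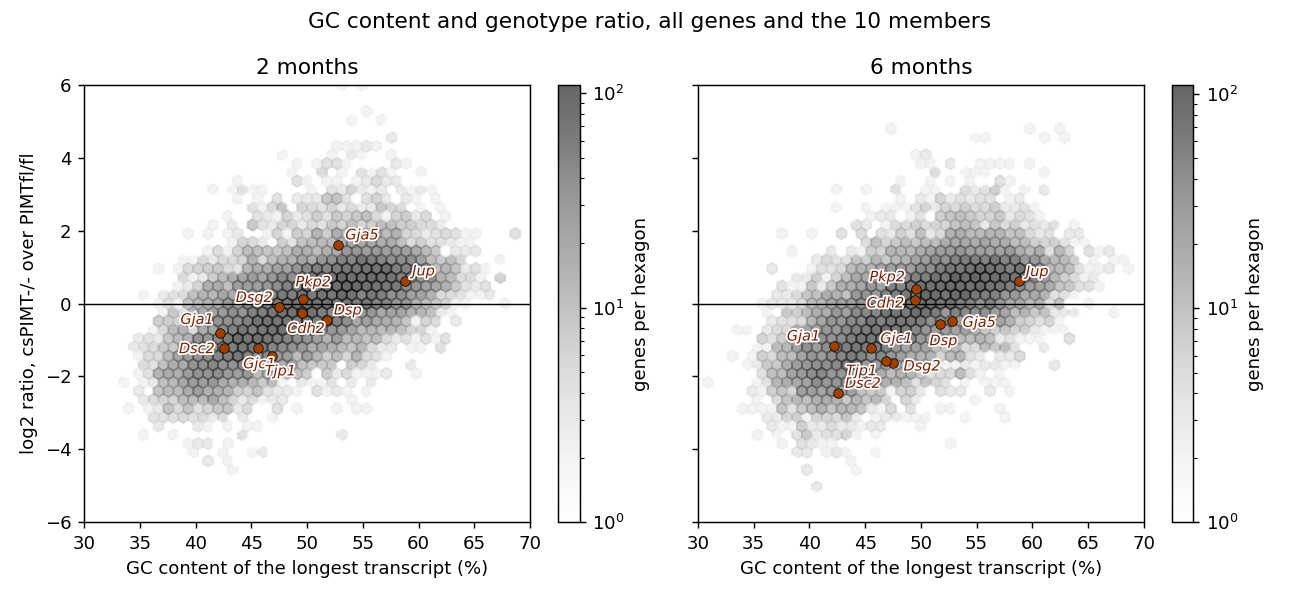
GC content of the longest transcript (%) against the log2 ratio of csPIMT-/- over PIMT fl/fl at 2 months (left) and 6 months (right), with all compared genes as grey hexagons shaded by their number and the 10 genes as labelled points; 48 and 16 genes lie outside the axes. Gja1 at 42.2% GC sits within the cloud of low-GC genes and Jup at 58.8% within that of high-GC genes. Gja5 at 2 months is above most genes of its GC content, and Tjp1, Dsg2 and Dsc2 at 6 months are below most of theirs.

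Gja1 encodes connexin 43, the main connexin of the working ventricular muscle. Its normalized counts were 19097 and 22407 in the controls of 2 and 6 months and 10938 and 9999.9 in csPIMT-/- hearts. Both csPIMT-/- libraries lay below both controls. The ratio was 0.573 (0.559 to 0.587) at 2 months and 0.446 (0.436 to 0.457) at 6 months, and limma gave a log2 difference of -0.98 (SE 0.220, adjusted p = 0.0334). Subtraction of the GC trend turned the direction, to 1.21 and 1.08. The longest annotated transcript of Gja1 is noncoding, and with the GC content of the longest protein-coding transcript instead, a choice made after the data were seen, the ratios were 0.974 and 0.84. Against the control of the other age the ratio at 6 months was 0.524, no longer past 2-fold.

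Gjc1 encodes connexin 45, found chiefly in nodal and conduction tissue and in the embryonic heart. Normalized counts were 1995 and 1551 in the controls of 2 and 6 months against 851 and 663 in csPIMT-/- hearts. Again the genotypes did not overlap, and the ratio was nearly the same at both ages, 0.426 (0.391 to 0.464) and 0.427 (0.390 to 0.468). The limma log2 difference was -1.23 (SE 0.223, adjusted p = 0.0234). The ratio was 0.648 and 0.701 after subtraction of the GC trend, and 0.548 at 2 months against the control of the other age, neither past 2-fold. Conduction markers summed to 2026 and 1193 in the controls and to 1549 and 681 in csPIMT-/- hearts, lower sums at both ages whose part in the Gjc1 values was not tested. Of these 7 markers Isl1 was at 0 reads in 2 libraries.

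Gja5 encodes connexin 40, the connexin of atrial muscle, the conduction system and arterial endothelium. It was the connexin whose genotypes overlapped. Its normalized counts were 555 in the control and 1698 in csPIMT-/- hearts of 2 months, then 1142 in the control and 815 in csPIMT-/- hearts of 6 months. The ratio was 3.06 (2.79 to 3.37) at 2 months and 0.713 (0.652 to 0.780) at 6 months. Against the control of the other age these ratios became 1.49 and 1.47, so the call at 2 months ended and the direction at 6 months turned. The limma log2 difference over both ages was 0.56 (SE 0.523, adjusted p = 0.441).

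Atrial marker genes moved with Gja5. Normalized counts of Myl7, the atrial light chain, were 1045 and 17299 in the controls of 2 and 6 months, and 42908 and 8084 in csPIMT-/- hearts. Those of Bmp10, a growth factor of atrial muscle, were 5.19 and 6296 in the controls and 8564 and 1079 in csPIMT-/- hearts. From lowest to highest the libraries ran control of 2 months, csPIMT-/- of 6 months, control of 6 months and csPIMT-/- of 2 months, for Gja5 and for 5 of the 6 atrial markers (Myl7, Sln, Myl4, Bmp10 and Dkk3). Nppa, the sixth, was highest in csPIMT-/- hearts of 6 months. This order was looked for after the values had been seen, and 2.36% of all genes showed it. It was not particular to atrial genes, since 2 of 6 brown fat markers (Ucp1 and Adipoq), 2 of 7 mural markers (Myh11 and Cnn1) and 1 of 8 lung and airway markers (Scgb1a1) also had it. It was found in 0 of the 7 conduction markers, 0 of the 5 arterial endothelial markers and none of the other 9 disc genes. At 2 months 6 of 6 atrial markers were more than 2-fold higher in csPIMT-/- hearts (median ratio 45.5), and at 6 months 4 were lower and 1 higher (median ratio 0.483). The share of atrial tissue in each pool and its part in the Gja5 values were not tested.

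**Figure D3:**
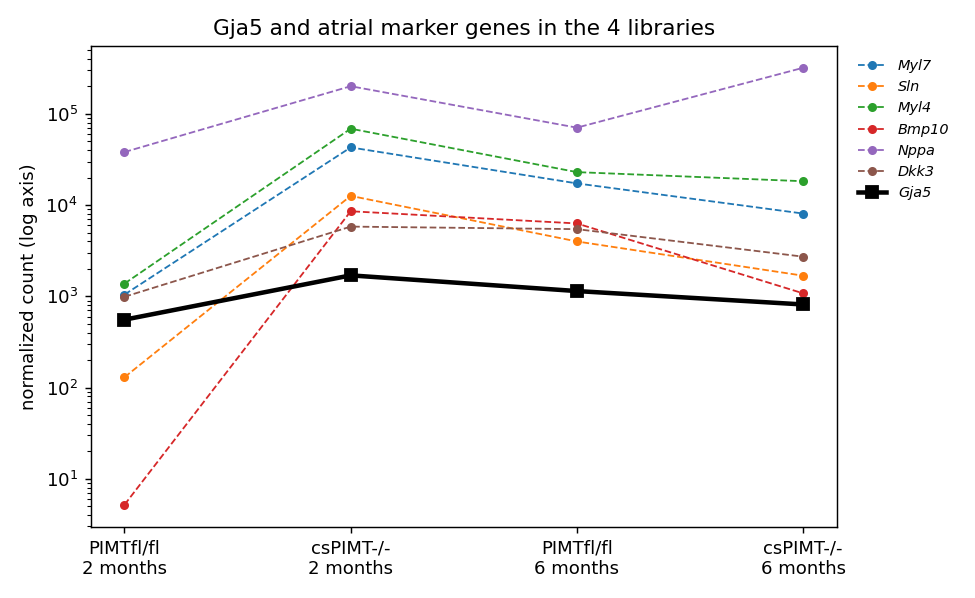
Normalized counts (log axis) of Gja5 (thick black line) and 6 atrial marker genes (dashed lines) in the 4 libraries, with lines joining the values of 1 gene and no error bars because there were no replicates. Gja5 runs from 555 to 1698, 1142 and 815 from left to right, and 5 markers share that order of libraries over a much wider range.

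The mix of connexin reads shifted with these values. Of the reads on the 3 connexin genes, Gja5 took 2.56% (2.37 to 2.77, Wilson 95% interval) in the control of 2 months and 12.6% (12.0 to 13.2) in csPIMT-/- hearts of that age. At 6 months it took 4.55% (4.32 to 4.8) in the control and 7.10% (6.63 to 7.59) in csPIMT-/- hearts. These shares were not adjusted for GC content. With the GC trend subtracted, Gja5 had ratios of 2.38 and 0.526 at 2 and 6 months, and Gja1 1.21 and 1.08. Under that setting Gja5 stood above Gja1 at 2 months but below it at 6 months. Gja1 remained the main source of connexin reads, with 88.2% and 89.3% in the controls and 81.1% and 87.1% in csPIMT-/- hearts. The Gjc1 share was 9.22% against 6.31% at 2 months, and 6.18% against 5.77% at 6 months, where the intervals of the pair overlapped.

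Dsc2 and Dsg2 encode desmocollin 2 and desmoglein 2, the cadherins through which cardiac desmosomes bind across the cell gap. Normalized counts of Dsc2 were 3934 and 4465 in the controls of 2 and 6 months against 1698 and 810.4 in csPIMT-/- hearts. The genotypes did not overlap, and its ratios of 0.432 (0.406 to 0.459) and 0.182 (0.168 to 0.196) included the lowest of any of the 10 genes. The limma log2 difference was -1.84 (SE 0.346, adjusted p = 0.0248). After subtraction of the GC trend the ratios were 0.883, no longer past 2-fold, and 0.426.

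From 2 to 6 months Dsg2 differed more than Dsc2 in controls, at ratios of 1.83 against 1.14. In csPIMT-/- hearts Dsg2 differed less, at 0.633 against 0.477. Its normalized counts were 2868 in the control and 2667 in csPIMT-/- hearts of 2 months, and 5261 and 1687 in those of 6 months. The ratio was 0.930 (0.881 to 0.982) at 2 months, turning to 1.17 after GC subtraction, and 0.321 (0.303 to 0.339) at 6 months. The control of 6 months stood above the other 3 libraries, and against the control of 2 months the ratio of the 6-month csPIMT-/- library was 0.588. Against the control of 6 months the ratio of the 2-month csPIMT-/- library was 0.507. Over both ages limma gave a log2 difference of -0.87 (SE 0.397, adjusted p = 0.153). Of the reads on both cadherins, Dsg2 took 42.2% (41.1 to 43.3) and 54.1% (53.2 to 55) in the controls of 2 and 6 months. In csPIMT-/- hearts it took 61.1% (59.5 to 62.7) and 67.6% (65.7 to 69.4), higher at each age by more than counting error. These shares were not adjusted for GC content, which was 47.5% for Dsg2 and 42.5% for Dsc2. With the GC trend subtracted, the ratios of Dsg2 and Dsc2 at 6 months were close, at 0.411 and 0.426.

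Dsp encodes desmoplakin, which links the desmosomal plaque to desmin filaments, and had the highest count of the 10 genes in every library. Its normalized counts were 49146 and 56498 in the controls and 35992.5 and 38669 in csPIMT-/- hearts of 2 and 6 months. The genotypes did not overlap, yet the ratios of 0.732 (0.722 to 0.743) and 0.684 (0.676 to 0.693) did not reach 2-fold. Subtracting the trend with transcript length, in place of GC, turned them to 1.20 and 1.03. The limma log2 difference was -0.50 (SE 0.236, adjusted p = 0.166).

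Jup encodes plakoglobin, an armadillo protein shared by desmosomes and adherens junctions. It was the desmosomal gene with both csPIMT-/- libraries above both controls. Normalized counts were 12035 and 9522 in the controls and 18525 and 14516 in csPIMT-/- hearts, with ratios of 1.54 (1.5 to 1.58) and 1.52 (1.49 to 1.56). Jup did not pass the test over both ages, at a log2 difference of 0.62 (SE 0.203, adjusted p = 0.0763). Among the 10 genes it had the highest GC content, and with the GC trend subtracted its ratios turned to 0.94 and 0.914.

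Pkp2 encodes plakophilin 2, which clusters desmoplakin at the plaque. Its normalized counts were 8540.5 and 10077 in the controls of 2 and 6 months and 9311 and 13397 in csPIMT-/- hearts, so the libraries of the genotypes overlapped. The ratio was 1.09 (1.06 to 1.12) and 1.33 (1.30 to 1.36), with a limma log2 difference of 0.27 (SE 0.209, adjusted p = 0.364). Against the control of the other age the ratio at 2 months was 0.924. Of the reads on Dsp, Pkp2 and Jup together, Dsp took 70.5% and 74.2% in the controls and 56.4% and 58.1% in csPIMT-/- hearts, while Jup took 17.3% and 12.5% against 29.0% and 21.8%.

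Cdh2 encodes N-cadherin, the adhesion molecule of cardiac adherens junctions. Its normalized counts were 14704 and 14503.5 in the controls of 2 and 6 months and 12264 and 15432 in csPIMT-/- hearts. One csPIMT-/- library lay below both controls and the other above both. The ratio was 0.834 (0.814 to 0.855) at 2 months and 1.06 (1.04 to 1.09) at 6 months, and the limma log2 difference was -0.09 (SE 0.218, adjusted p = 0.782). With the length trend subtracted the ratios were 1.07 and 1.34, both above 1.

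Tjp1 encodes ZO-1, which binds the tail of connexin 43 and borders gap junction plaques. Normalized counts were 6786 and 6532 in the controls of 2 and 6 months against 2524 and 2200.4 in csPIMT-/- hearts, and the controls differed little between ages. The ratio was 0.372 (0.354 to 0.391) at 2 months and 0.337 (0.321 to 0.354) at 6 months. The limma log2 difference of -1.5 (SE 0.199, adjusted p = 0.0163) had the smallest adjusted p of the 10 genes. After GC subtraction Tjp1 had ratios of 0.498 and 0.467, and with the control of the other age 0.386 and 0.324. It was the one gene of the 10 below 0.5 at both ages under each of these. Subtracting the length trend gave 0.562 and 0.469, and the GC trend of the longest protein-coding transcript 0.527 and 0.501, with 3 of these 4 short of 2-fold.

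**Figure D4:**
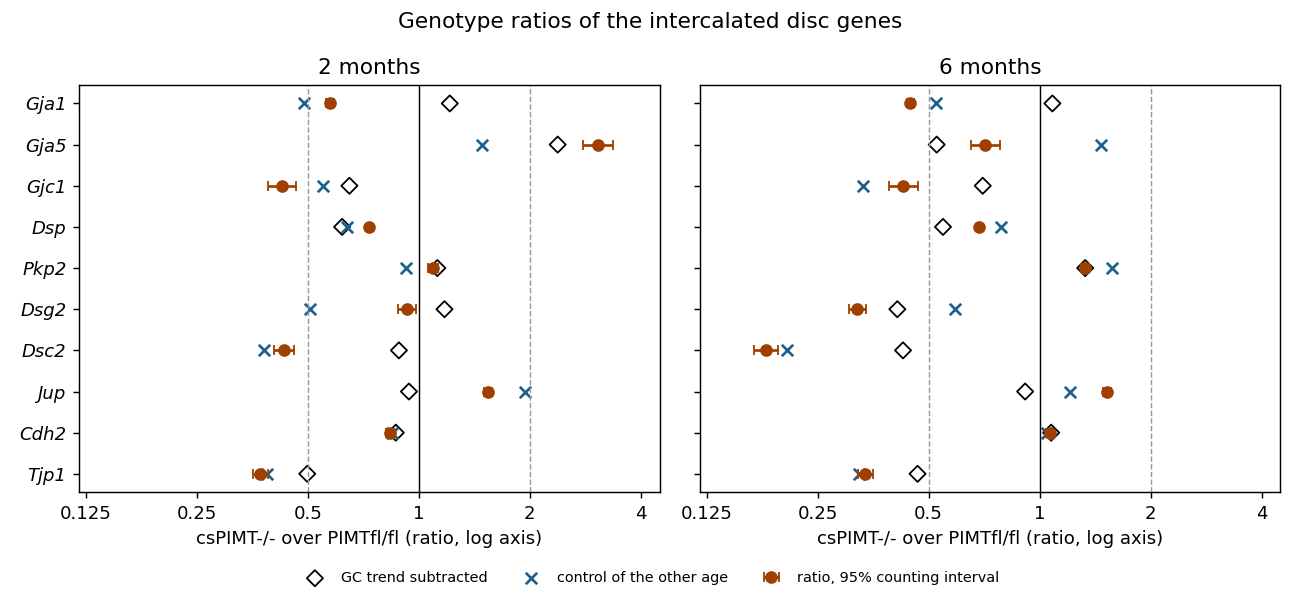
Ratio of csPIMT-/- over PIMT fl/fl (log axis) for the 10 genes at 2 months (left) and 6 months (right): filled points with bars are the ratios with 95% counting intervals, diamonds the ratios with the GC trend subtracted and crosses those against the control of the other age; dashed lines mark 2-fold. All 3 symbols of Tjp1 stay at or below 0.5 in both panels, whereas the diamonds of Gja1 and Jup lie across 1 from their points and the cross of Gja5 at 6 months lies above 1.

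The number of these genes more than 2-fold apart between ages was near the share over all genes. From 2 to 6 months, 1 of the 10 genes in controls was more than 2-fold apart, Gja5 at 2.06 (1.87 to 2.27), where 13.7% of 15132 genes were more than 2-fold lower or higher. Dsg2 followed at 1.83, and the other 8 genes ranged from 0.777 (Gjc1) to 1.18 (Pkp2). In csPIMT-/- hearts 2 of the 10 genes were more than 2-fold apart, where 17.9% of 15057 genes were. These were Dsc2 at 0.477 and Gja5 at 0.480, both lower at 6 months. Dsg2 was at 0.633, Pkp2 at 1.44 and Cdh2 at 1.26. These values share their libraries with the genotype ratios, and age cannot be told apart from the mice in each pool.

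Other genes of the disc, in 4 lists by role, moved both ways. Of 67 genes listed 50 could be compared at each age, with 10 lower and 10 higher by more than 2-fold at 2 months, and 14 lower and 10 higher at 6 months. Over all genes 22.5% were lower and 17.3% higher at 2 months, and 24.9% and 16.9% at 6 months. The median log2 ratio of the 50 genes was -0.10 at both ages. Over both ages limma called 8 of 50 lower and 5 higher, against 17.5% and 11.0% of all genes. With the GC trend subtracted, 5 of 50 were more than 2-fold lower and 8 higher at 2 months, and 11 and 10 at 6 months. Over all genes that setting gave 1719 of 14964 lower and 2231 higher at 2 months. At 6 months it gave 1978 of 15028 lower and 2139 higher. The genes named in the next 3 paragraphs had at least 100 reads in 1 library and were past 2-fold in 1 direction at both ages, at most 4 of each list, apart from the keratinocyte cadherins, which were added after their values were seen.

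Among the other connexins and pannexins, 20 genes were listed and most were barely read. Of these, 2 of 11 compared were lower and 4 higher at 2 months, and 5 of 10 were lower and 5 higher at 6 months. With the GC trend subtracted, 3 were lower and 4 higher at 2 months, and 4 lower and 4 higher at 6 months. Panx1, a channel protein of the pannexin family that releases ATP, had 149 and 122 reads in the controls of 2 and 6 months and 267 and 737 reads in csPIMT-/- hearts. Its ratios were 2.55 and 7.15, and it was the one gene of this list that limma called (log2 difference 2.09, adjusted p = 0.0327).

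The other desmosomal genes counted 15, of which 8 could be compared at 6 months. At 2 months 1 of 7 compared was lower and 4 were higher, and at 6 months 2 of 8 were lower and 2 higher. With the GC trend subtracted, 1 was lower and 2 were higher at 2 months, and 2 lower and 2 higher at 6 months. Des encodes desmin, the muscle intermediate filament that desmoplakin anchors. It had 71175 and 69821 reads in the controls and 124755 and 259045 reads in csPIMT-/- hearts. Its ratios of 2.5 and 4.39, with a limma log2 difference of 1.73 (adjusted p = 0.026), stood against ratios below 1 for Dsp, its desmosomal anchor. Dsg1a went from 15 reads in the control to 0 reads in csPIMT-/- hearts at 6 months. Keratinocyte desmogleins and desmocollins (Dsg1a, Dsg1b, Dsg1c, Dsg3, Dsg4, Dsc1 and Dsc3) had at most 15 reads in any library.

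Of 9 further genes of the adherens junction and area composita, 2 were more than 2-fold lower and 0 higher at 2 months, and 1 was lower and 0 higher at 6 months. Limma called 2 lower and 0 higher. With the GC trend subtracted, 1 of the 9 was more than 2-fold lower at 2 months and 1 at 6 months. Ctnna3, αT-catenin of the area composita, had 4879 and 5137 reads in the controls and 1583 and 880 in csPIMT-/- hearts, with ratios of 0.462 and 0.203 (limma log2 difference -1.71, adjusted p = 0.0263). Among 23 scaffold, actin-linked and channel genes of the disc, 5 were lower and 2 higher at 2 months, 6 were lower and 3 higher at 6 months, and limma called 6 lower and 2 higher. With the GC trend subtracted, 0 of this list were more than 2-fold lower at 2 months and 4 at 6 months. None of the genes named next therefore stayed past 2-fold at 2 months under that setting. Cxadr, the coxsackievirus and adenovirus receptor that sits at the disc, had ratios of 0.282 and 0.154 (log2 difference -2.26, adjusted p = 0.0163). Tmem65, a disc membrane protein tied to connexin 43, had ratios of 0.337 and 0.215 (-1.89 on the log2 scale, adjusted p = 0.0163). Mapre1 encodes EB1, a microtubule tip protein that helps deliver connexin 43, and had ratios of 0.314 and 0.471 (-1.38 on the log2 scale, adjusted p = 0.0222).

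**Figure D5:**
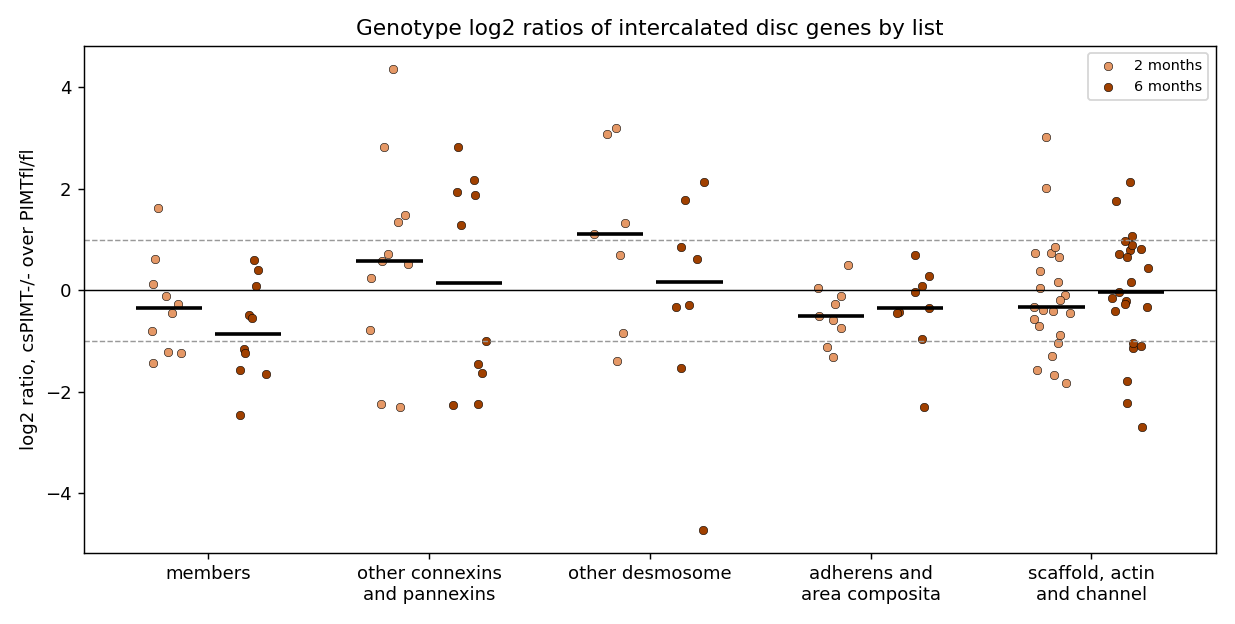
Log2 ratios of csPIMT-/- over PIMT fl/fl for the 10 genes and 4 lists of other disc genes, 1 point a gene at 2 months (light) and 6 months (dark), with a pseudocount of 0.5 reads; bars are medians and dashed lines mark 2-fold. The 10 genes have medians of -0.36 and -0.86, the other lists spread to both sides of 0, and the lowest point among other desmosomal genes at 6 months is Dsg1a, with 15 reads against 0.

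Levels of other cell types are given for comparison with the disc genes. Cardiomyocyte markers summed to 3166630 and 3641390 normalized counts in the controls of 2 and 6 months and to 2436010 and 1738240 in csPIMT-/- hearts, ratios of 0.769 and 0.477 that were carried mostly by Ttn. Their median ratio was 1.10 at 2 months and 0.847 at 6 months, with 1 and 2 of 8 more than 2-fold lower. Fibroblast markers summed to 126993 and 73137 in the controls and 112596 and 122834 in csPIMT-/- hearts. Of these 6 markers 1 was more than 2-fold lower and 0 higher at 2 months, and 0 lower and 3 higher at 6 months. Endothelial markers summed to 70177 and 53217 in the controls against 51871 and 56158 in csPIMT-/- hearts. Of these 7 markers 2 were lower and 0 higher at 2 months, and 1 lower and 0 higher at 6 months. Leukocyte markers had higher sums in csPIMT-/- hearts at both ages, at 30093 against 9453 and 40157 against 23843, with 4 of 6 more than 2-fold higher and 0 lower at 2 months and 2 higher and 1 lower at 6 months. The pan-leukocyte gene Ptprc had ratios of 0.533 and 0.443, the other way from the sum. Mural markers summed to 72874 and 62927 in the controls and 86362 and 50440 in csPIMT-/- hearts, with 3 of 7 more than 2-fold higher and 1 lower at 2 months and 0 higher and 1 lower at 6 months. Brown fat markers had a median ratio of 9.45 at 2 months, with 3 of 6 more than 2-fold higher and 1 lower, and of 0.657 at 6 months, with 1 of 5 higher and 2 lower. Among them Adipoq had normalized counts of 5.19 and 453 in the controls of 2 and 6 months and 1830 and 298 in csPIMT-/- hearts. The part of cell make-up in the values of the 10 genes was not tested.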

How the data were processed

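RNA from heart was enriched for mRNA and sequenced, with 1 library for each of 4 groups. The authors aligned reads to the mouse genome (mm10), counted them per gene with HTSeq 0.6.1p1 and normalized them with DESeq2, per the submitters' processing notes. The deposited signal is a normalized count per gene, not a raw count. Dividing the deposited values of a library by its lowest non-zero value gave whole reads (100% of values within 1e-06), and 1 read was worth 0.865 to 1.23.

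Ratios used median-of-ratios size factors over the 4 libraries, a minimum of 10 reads in 1 library compared, and a pseudocount of 0.5 reads for log2 values. No p-value is given for a single age. Because the values were not raw counts, the main test over both ages was limma 3.58.1 (R 4.3.3) on log2(normalized count + 1) with genotype and age and a mean trend of the variance, for genes with at least 10 in at least 2 libraries. The pseudocount understates changes of low genes. p-values were adjusted by Benjamini-Hochberg. On the recovered reads edgeR 4.0.16 (quasi-likelihood) called 2521 genes lower and 1637 higher, and DESeq2 1.42.0 called 2988 and 2190, against 2595 and 1637 by limma. The GC trend was a lowess curve with a span of 0.3 on the GC content of the longest GENCODE M21 transcript, known for 97.9% of genes. The length trend was fitted alike. Levels per kb used the longest protein-coding transcript. Scripts were tested on simulated data. No sequencing batch or date was given in the sources used here.

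The 10 genes and all lists were chosen with earlier results of these data known. Named genes were the 10, Tgs1, and from each list at most 4 genes that reached 100 reads in 1 library and were past 2-fold in 1 direction at both ages, ranked by mean absolute log2 ratio. One gene that this rule names is not reported here. Marker genes were named as lists, with a few given as examples. Alternatives were other normalizations, minimums, pseudocounts, controls and tools, and GC and length trends.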

Additional observations from a re-analysis of the deposited data

Results flagged for a closer look

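The ratio of csPIMT-/- over control lay on opposite sides of 1 at the 2 ages for 2 of the 10 genes, where 20.8% of the 14781 genes compared at both ages did so. Gja5 had a ratio of 3.06 at 2 months and 0.713 at 6 months, with counting intervals that did not overlap. Cdh2 had a ratio of 0.834 at 2 months and 1.06 at 6 months, again with separate counting intervals, but 1.07 and 1.34, on the same side of 1, with the length trend subtracted. With 1 library a group, the difference between ages was not tested for either gene. Atrial markers had a median ratio of 45.5 at 2 months and 0.483 at 6 months, and their part in the Gja5 difference was not tested.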

How the results depend on the processing

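No paired analysis was possible because each group had 1 library and the labels carry no replicate numbers, and only age, a term of the limma fit, matches the genotypes. Leaving out a library was not run, since it would leave a group empty and no residual degree of freedom.

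With the GC trend subtracted, the Gja1 ratio at 6 months turned to 1.08, its log2 difference over both ages to 0.21 and that of Jup to -0.11. That setting left 1 of the 10 genes past 2-fold lower at 2 months, against 3, and 3 at 6 months, against 5. Over all genes it left 1719 of 14964 lower at 2 months, against 3405 of 15152. At 6 months it left 1978 of 15028, against 3794 of 15218. With the GC trend of the longest protein-coding transcript, a setting chosen after seeing the data, 0 and 2 of the 10 were left. Of all genes, 1459 of 14245 were left at 2 months. The length trend left 1 of the 10 at 2 months, and 2802 of 14964 genes. With the control of the other age 0 of the 10 were higher at 2 months, against 1, and 3 lower at 6 months. Over all genes 2238 of 15171 were higher at 2 months and 3262 of 15209 lower at 6 months. The cause was not tested.

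Among the other disc genes, the counts lower at 2 months were 5 with the GC trend and 4 with that of protein-coding transcripts, against 10. With at least 100 reads, 5 and 6 were higher at 2 and 6 months, against 10 and 10, since fewer genes were compared. At 6 months 8 were lower with at least 100 reads, 8 with the whole interval past 2-fold and 9 with the protein-coding GC trend, against 14. DESeq2 called 11 of them higher over both ages, against 5 by limma. Without the mean trend, or with the GC trend subtracted, limma called 0 of all genes, 0 of the 10 and 0 of the other disc genes in either direction. At an unadjusted p under 0.05 there were 5965 and 3821 of all genes, and 22 and 19 of the other disc genes.

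The 4 limma calls among the 10 genes held under the other 7 settings. Adjusted p-values over the settings ranged from 0.00543 to 0.527 for Gja1, 0.00155 to 0.197 for Gjc1, 1.15e-05 to 0.251 for Dsc2 and 1.32e-05 to 0.0964 for Tjp1. Among recomputed ratios of the 10 genes, 96 stayed within their counting interval, 83 moved beyond it and 1 that had been past 2-fold changed direction. Among recomputed log2 differences of the 10 genes and Tgs1, 88 stayed on their side of the threshold, 9 lost the limma call and 2 turned. Depth did not limit the 10 genes, each of which had at least 637 reads in every library. The missing replicates did.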
